A study of Mus musculus with 12 samples.

Results

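The doublecortin, stathmin and tau family was followed by RNAseq in mouse adherent neural stem (ANS) cells as they differentiated. It was taken as 8 named genes, matched by symbol in the gene count tables and in a table of FPKM values: the doublecortin genes Dcx, Dclk1 and Dclk2, the stathmin genes Stmn1, Stmn2, Stmn3 and Stmn4, and Mapt, which encodes tau. All 8 were present among the 22609 genes of the count tables. They were chosen by name, with earlier results of these data known.

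These proteins act on microtubules, the tubulin polymers that shape a neuron and carry its transport. Doublecortin binds and stabilises microtubules in migrating and newly formed neurons, and mutations of its gene disturb the migration of cortical neurons in humans. Stathmins do the opposite: they bind tubulin dimers and promote microtubule disassembly, Stmn1 also in dividing cells of many tissues and Stmn2, Stmn3 and Stmn4 mainly in neurons. Tau binds along microtubules, chiefly in axons, and is also made by oligodendrocytes.

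ANS cells are neural stem cells grown as an attached layer; these came from mouse brain at E14.5 and the labels name no genetic modification or drug in any group. T0 cells were kept in growth medium with FGF2 and EGF at 20 ng/ml each. T1 cells were taken 2 days after the change to medium D1, with FGF2 at 10 ng/ml and EGF at 2 ng/ml. T2 cells were taken 2 days after the change to medium B, with FGF2 at 10 ng/ml, BDNF at 20 ng/ml and laminin. T3 cells were taken after 10 days in medium B by the labels and the study's supplement, though its results text counts these days from T2. The name of the T3 replicate 4 file holds an extra number that the labels do not explain. T0 and T1 had 3 libraries each, T2 had 4 and T3 had 2 (replicates 1 and 4), and they are described as biological replicates; the p-values measure the spread between these libraries. The cells are a culture model, and every library is bulk RNA, so that fewer cells of a type and less RNA per cell cannot be told apart.

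One member, Stmn1, shares most of its transcript sequence with other places in the genome, which bears on how its reads could be counted. Stmn1 lies at chr4:134024235-134029758 (plus strand, mm9). Along its longest coding transcript in the GENCODE annotation, 1060 bases long with the coding part at bases 171 to 620, 932 of 1011 stretches of 50 bases (92.2%) had another place in the genome with at most 2 mismatches, and in the coding part every stretch had one. The 79 stretches without such a copy all lay within the first 128 bases, in the 5′ untranslated region. Below are the first 30 coding bases of Stmn1 and the same stretch in its 3 longest copies, with bases that differ from Stmn1 in capitals.
Stmn1: atggcatcttctgatattcaggtgaaagag
copy on chromosome 4, chr4:69587084-69587113, minus strand: atggcatcttctgatattcaggtgaaagag
copy on chromosome 17, chr17:70742777-70742806, minus strand: atggcatcttctgatattcaggtgaaagag
copy on chromosome 9, chr9:115191070-115191099, minus strand: atggcatcttctgatGCtcaAgtgaaagag
The copy on chromosome 4 lies in the annotated pseudogene Gm11223 and matched 970 aligned bases at 99.48% identity, the one on chromosome 17 lies within the gene Dlgap1 at 93.48%, and the one on chromosome 9 within Stt3b at 85.3%. The first 2 are identical to Stmn1 over the bases shown and the third differs at 3 of them. A read from a stretch with an identical copy has no single best place, while one whose copy differs at 1 or 2 bases may still have one. Reads with more than 1 place, which made up 26.0% to 39.0% of the entries that HTSeq listed per library, were not assigned to genes. Their share was 34.0%, 34.6% and 39.0% in the T0 libraries and 26.0% to 33.3% in the later ones. What this difference means for the Stmn1 counts was not tested.

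The other members did not share this limit. Copies were found for 1.03% of the stretches of Dcx and 0.096% of those of Mapt, and for none of Dclk1, Dclk2, Stmn2, Stmn3 and Stmn4. How many Stmn1 reads were left out for this reason was not tested, and its level against other genes is uncertain.

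**Figure D1:**
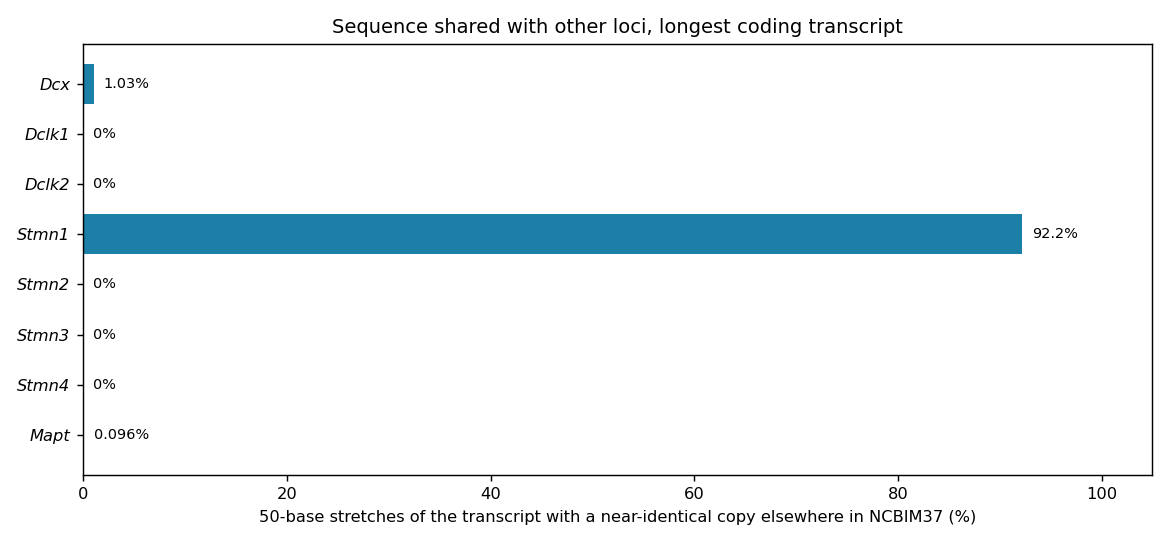
Share of the 50-base stretches of each member's longest coding transcript that have a near-identical copy (at most 2 mismatches) elsewhere in the mouse genome, in percent. Stmn1 stands at 92.2%, while the other 7 members lie at 1.03% or below.

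Between 8910724 and 16631614 reads per library were assigned to genes (median 12601169). T0 replicate 3 stood apart from the other T0 libraries: its summed CPM over 10 proliferation markers was 3280, against 1949 and 2054, its share of reads with more than 1 place was the highest of all libraries, and it had the lowest value of every member except Stmn1, and of Stmn2, which was at 0 throughout T0. Member results against T0 are therefore given also without it. Leaving it out also raised the share of all genes with an adjusted p under 0.05 in the edgeR test against T0. At T1, T2 and T3 this share went from 31.9%, 43.3% and 4.72% to 50.1%, 52.1% and 18.4%. The proliferation sum fell to between 163 and 316 at T1 and stood between 211 and 402 at T2 and between 605 and 1139 at T3. The summed neuron markers (12 genes) ranged from 901 to 964 at T0, and in the later groups, in order, from 1864 to 2404, from 1767 to 2209 and from 1455 to 2222, with Gad2, Nefm and Slc32a1 at 3 counts or fewer in every library. Snap25, Syt1 and Rbfox3, also in the neuron list, stayed at 3.11 CPM or less. Gad1, of the same list, had 1.20 to 4.03 CPM at T0, 44.04 to 56.40 at T2, and 48.32 and 23.94 at T3. Of the 8 neuron markers tested at T2 against T0, 7 were higher and 0 lower, beside 21.4% and 21.8% of all genes. Neural stem cell markers summed to between 6822 and 8206 at T0 and between 6218 and 6518 at T3, and astrocyte markers to 2519 to 3714 and 2142 to 2470. Oligodendrocyte lineage markers were also present, from 3512 to 3809 at T0 and from 5346 to 6299 at T3 (Mag at 3 counts or fewer). The part of oligodendrocyte lineage cells in the tau signal was not tested.

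Dcx was nearly silent in proliferating cells and rose strongly after the change of medium. Dcx (chrX:140290385-140367854, minus strand, mm9) had 8.14, 6.71 and 1.76 CPM in T0 replicates 1, 2 and 3; CPM are counts scaled to a library of 1000000 assigned reads, with edgeR's TMM factors. It had 200.48, 248.20 and 207.40 CPM at T1. At T2 it had 382.05, 420.91, 378.80 and 294.73 CPM, and at T3 546.38 and 271.45. Every library after T0 lay above every T0 library, T2 lay above T1 without overlap, and the 2 T3 libraries lay on either side of all T2 libraries.

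The mean of Dcx exceeded that of T0 39.5-fold at T1, 66.6-fold at T2 and, with 2 libraries, 73.8-fold at T3. The log2 fold changes in edgeR's quasi-likelihood test were 5.29 (SE 0.50, adjusted p = 0.000707), 6.06 (SE 0.47, adjusted p = 8.19e-05) and 6.22 (SE 0.68, adjusted p = 0.018). Without T0 replicate 3, whose Dcx level was 4.21-fold below the mean of the other T0 libraries, the fold changes from the fit were 29.2, 49.8 and 55.6, with adjusted p-values of 8.34e-07, 2.24e-07 and 0.00693. The T3 call was lost in edgeR without T0 replicate 1 (adjusted p = 0.0682) or 2 (adjusted p = 0.084), where 0.119% and 0.12% of all genes passed. It was also lost in limma on log2(FPKM + 1) without a filter (adjusted p = 0.0632), where 0.111% of all genes passed. Fits without a T3 library keep only 1 library at T3 and are not counted here. Their log2 fold changes were 5.63 without replicate 1 and 6.63 without replicate 4. The T1 and T2 calls passed under every alternative tried.

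**Figure D2:**
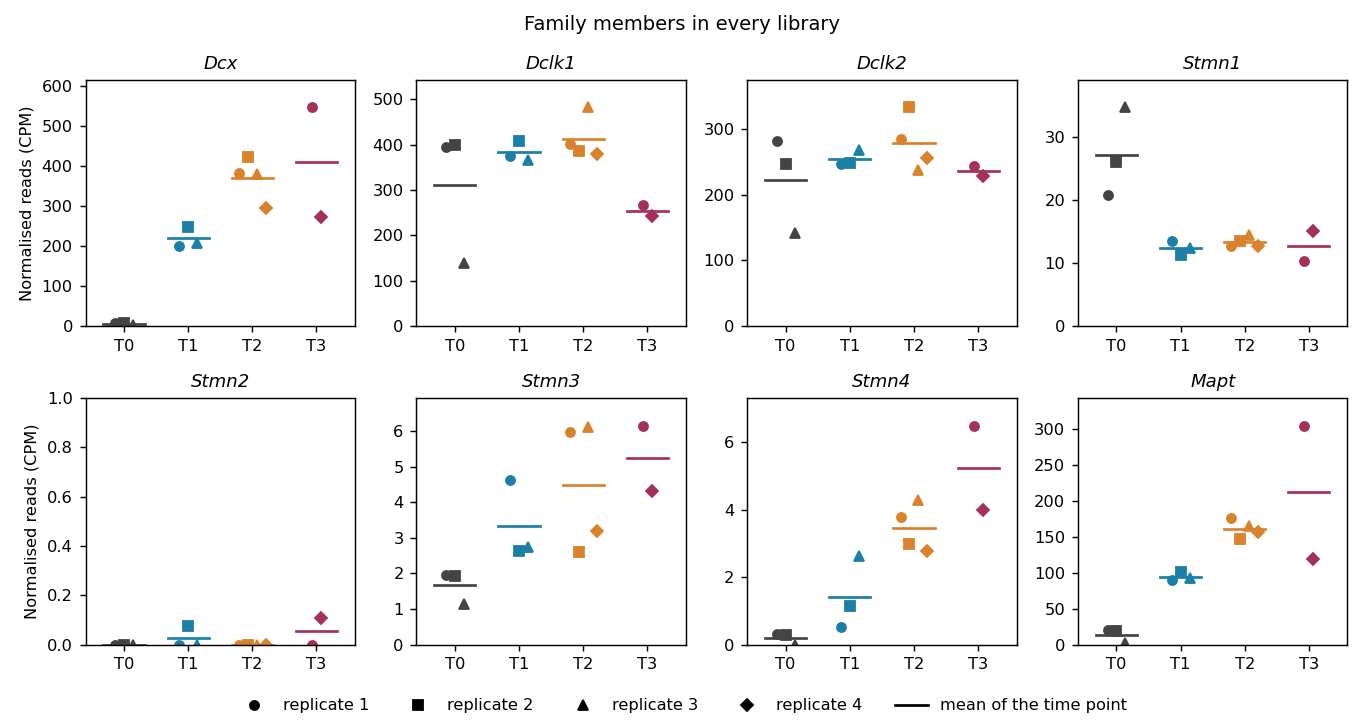
Normalised reads (CPM, linear axes from 0, one scale per gene) of the 8 members in each of the 12 libraries, by time point; marker shapes give the replicate number and bars the mean. Dcx and Mapt lie above all T0 libraries at T1, T2 and T3, Stmn1 lies below them, and the 2 T3 libraries differ most in Mapt and Dcx.

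The 2 doublecortin-like kinases, which join doublecortin domains to a serine/threonine kinase domain, did not follow Dcx. Dclk1 (chr3:55046448-55342986, plus strand) was high from the start, with 395.55, 398.81 and 138.63 CPM at T0. It had 375.72, 407.97 and 366.82 CPM at T1 and 401.27, 384.89, 482.60 and 378.70 at T2. At T3 it had 266.20 and 242.55. T0 overlapped every later time point, T1 and T2 through replicates 1 and 2 and T3 only through the low value in replicate 3, which was 2.87-fold below the mean of the others, and both T3 libraries lay below all libraries of T1 and T2.

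For Dclk1 the log2 fold change against T0 was 0.29 at T1 (95% interval -0.58 to 1.16, adjusted p = 0.568), 0.41 at T2 (-0.34 to 1.16, adjusted p = 0.337) and -0.28 at T3 (-1.42 to 0.86, adjusted p = 0.733). Without T0 replicate 3 these became -0.06, 0.05 and -0.63, and the last passed the test (adjusted p = 0.0267). The T3 mean was 1.51-fold below that of T1 (log2 fold change -0.58, SE 0.12, adjusted p = 0.0345), a call that was lost in 8 of the 13 alternatives. It was 1.62-fold below that of T2 (log2 fold change -0.69, SE 0.13), where the adjusted p of 0.0516 missed the threshold and 1.19% of all genes passed. DESeq2, which called 5.81% of all genes, gave 0.000114, and edgeR without a filter on low counts (4% of all genes) also called it. One fit of all 12 libraries, the fit with the replicate number as a block and the limma fits did not.

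Dclk2 (chr3:86590073-86724803, minus strand) varied little between the time points. It had 282.30, 246.85 and 141.38 CPM at T0 and 247.68, 248.73 and 267.98 at T1. It had 285.48, 334.02, 237.46 and 257.01 CPM at T2 and 243.92 and 229.17 at T3. The time points overlapped, except that both T3 libraries lay below the T1 libraries. The intervals of its log2 fold change against T0 were -0.40 to 0.75 at T1, -0.21 to 0.85 at T2 and -0.67 to 0.85 at T3, and in no comparison did Dclk2 pass the test. Without T0 replicate 3 they narrowed to -0.27 to 0.14, -0.22 to 0.37 and -0.46 to 0.16.

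Among the stathmins, Stmn1 moved in the direction opposite to Dcx. It had 20.84, 26.14 and 34.80 CPM at T0 and 13.47, 11.22 and 12.41 at T1. It had 12.65, 13.46, 14.53 and 12.76 CPM at T2 and 10.40 and 15.10 at T3. Every library after T0 lay below every T0 library, and the later time points overlapped one another.

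The Stmn1 mean was 2.20-fold lower at T1 (log2 fold change -1.15, SE 0.22, adjusted p = 0.00874) and 2.04-fold lower at T2 (log2 fold change -1.03, SE 0.18, adjusted p = 0.00276), and both calls passed under every alternative. At T3 it was 2.14-fold lower, with an adjusted p of 0.0958. Beside it, T0 replicate 3, the library with the highest proliferation sum, had 1.48-fold more Stmn1 than the mean of the other T0 libraries, and without it the log2 fold changes for T1, T2 and T3 were -0.94, -0.82 and -0.88 (adjusted p = 0.000716, 0.000585 and 0.0627). The copies described above make the Stmn1 level, and possibly its change, less certain than those of the other members.

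Stmn2, known as SCG10 and found in growing neurites, was not detected beyond single reads. It had 0 counts in 10 of the 12 libraries, 1 count in T1 replicate 2 and 1 count in T3 replicate 4, or 2 counts among 153485909 assigned reads. A count of 0 allows up to 3 counts, which in these libraries is between 0.18 and 0.337 CPM. None of its 50-base stretches had a copy elsewhere, so that the sharing found for Stmn1 does not apply to it. It was not tested in any comparison.

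Stmn3, also called SCLIP, was low throughout and rose at T2. Stmn3 (chr2:181041164-181049205, minus strand) had 1.94, 1.94 and 1.13 CPM at T0 (26, 28 and 16 reads) and 4.63, 2.64 and 2.74 at T1. It had 5.99, 2.60, 6.12 and 3.19 CPM at T2 and 6.15 and 4.31 at T3. All T0 libraries lay below all later ones, and T1, T2 and T3 overlapped.

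The Stmn3 mean was 2.00-fold, 2.68-fold and 3.14-fold that of T0 at T1, T2 and T3. The change passed the test at T2 (log2 fold change 1.41, SE 0.39, adjusted p = 0.02) and missed it at T1 (0.98, SE 0.36, adjusted p = 0.0755) and T3 (1.66, SE 0.41, adjusted p = 0.0736). Without T0 replicate 3 the values were 0.75, 1.19 and 1.45, with adjusted p-values of 0.0793, 0.0277 and 0.0385, so that T3 also passed. The T2 call rests on a small number of reads: it was lost when T2 replicate 1 or replicate 3 was left out, under limma on log2(FPKM + 1), and with the replicate number as a block (largest adjusted p = 0.0951).

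Stmn4, also called RB3, started from almost no reads. Stmn4 (chr14:66963133-66980517, plus strand) had 0.30, 0.28 and 0.00 CPM at T0 (4, 4 and 0 reads) and 0.51, 1.13 and 2.62 CPM at T1. It had 3.77, 2.97, 4.29 and 2.76 CPM at T2 and 6.49 and 3.99 at T3. Each T1 library lay above all T0 libraries and below all T2 libraries, and T3 overlapped T2.

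The log2 fold change of Stmn4 against T0 was 4.11 at T2 (SE 0.56, adjusted p = 0.000779) and 4.73 at T3 (SE 0.80, adjusted p = 0.0369). In means of CPM these are 18.0-fold and 27.3-fold, from a T0 level of 0.192 ± 0.166 CPM (SD, n = 3). At T1 it was too low to enter the test; with no filter on low counts its log2 fold change was 2.87 (adjusted p = 0.0446). Without T0 replicate 3, the T0 library with 0 reads, the log2 fold change was 2.34, 3.53 and 4.16 for T1, T2 and T3 (fitted T2 and T3 folds of 11.5 and 17.9), with adjusted p-values of 0.0306, 5.93e-05 and 0.012. The T2 call passed under every alternative. The T3 call was lost without T0 replicate 1 or 2, where 0.119% and 0.12% of all genes passed. It was also lost in limma on log2(FPKM + 0.1) (0.846% of all genes) and on log2(FPKM + 1) without a filter (0.111%). Fits without a T3 library keep only 1 library at T3 and are not counted here.

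Mapt rose at T1 and T2, as Dcx did, from a higher start. Mapt (chr11:104092704-104193404, plus strand) had 20.24, 18.88 and 2.12 CPM at T0 and 90.28, 100.94 and 92.27 at T1. It had 175.96, 146.22, 165.56 and 156.35 CPM at T2 and 304.71 and 119.60 at T3. T0, T1 and T2 did not overlap, and the T3 libraries lay above T1 with one above and one below all of T2. In T0 replicate 3 Mapt was 9.24-fold below the mean of the other T0 libraries, the widest gap among the members with reads in that library.

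The Mapt mean was 6.87-fold higher than at T0 at T1 (log2 fold change 2.77, SE 0.67, adjusted p = 0.0216), 11.7-fold at T2 (3.55, SE 0.61, adjusted p = 0.00225) and 15.4-fold at T3 (3.96, SE 0.90, adjusted p = 0.0639). Without T0 replicate 3 the fold changes from the fit were 4.79, 8.24 and 11.0, all past the threshold (adjusted p = 1.41e-06, 3.15e-07 and 0.0166). The T1 call was lost when any one T1 library was left out (largest adjusted p = 0.0758).

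**Figure D3:**
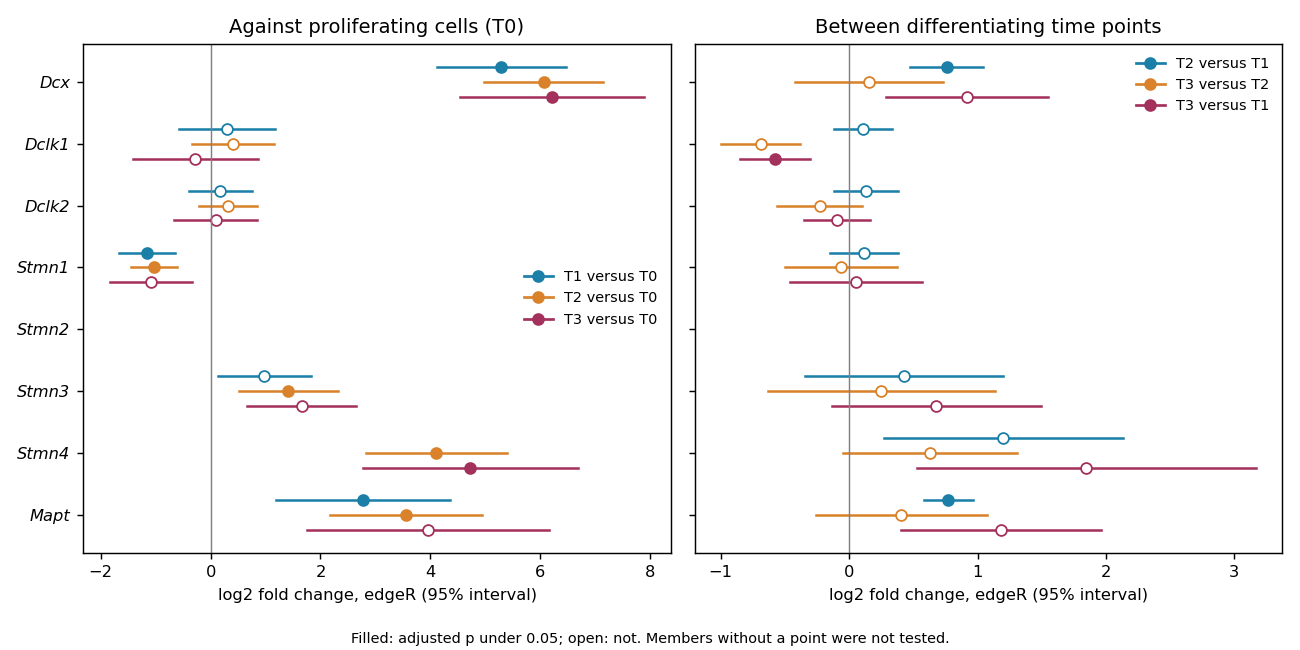
log2 fold changes of the members with 95% intervals from edgeR, against T0 on the left and between the later time points on the right; filled points have an adjusted p under 0.05, and members without a point were not tested. Dcx, Mapt and Stmn4 lie to the right of 0 against T0, Stmn1 to the left, and the intervals of Dclk1 and Dclk2 against T0 include 0.

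At T1, 3 of the 6 members tested passed the test against T0, where 31.9% of all genes tested did: Dcx and Mapt were higher, as 15.1% of all genes were, and Stmn1 lower, as 16.8% were. Groups did not overlap for 4 of the 6, and for 56.3% of all genes. At T2, 5 of 7 passed, where 43.3% of all genes did: Dcx, Mapt, Stmn3 and Stmn4 were higher (21.4% of all genes) and Stmn1 lower (21.8%). The same 5 did not overlap, as 54.2% of all genes did not. At T3, 2 of 7 passed, where 4.72% of all genes did. These were Dcx and Stmn4, both higher (3.31% of all genes; 1.41% were lower), and 5 of the 7 did not overlap, against 50% of all genes. The median log2 fold change of the tested members against T0 was 0.63, 1.41 and 1.66, and that of all genes -0.0082, 0.00229 and -0.0149; as the 3 comparisons share the T0 libraries, their values stand side by side only as descriptions.

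From T1 to T2, Dcx and Mapt went on rising. They were the only members past the threshold of the 7 tested, where 0.63% of all genes passed (0.573% higher, 0.0565% lower): Dcx by 0.76 (log2, SE 0.13, adjusted p = 0.0355) and Mapt by 0.77 (SE 0.08, adjusted p = 0.00653). The replicate number was also used as a block, a pairing that the labels do not state. The changes were then 0.86 (SE 0.06, adjusted p = 0.00558) and 0.78 (SE 0.09, adjusted p = 0.0135), and 1.99% of all genes passed. In one fit of all 12 libraries and in limma neither passed, where at most 0.0371% of all genes did. The Dcx call held in 7 of 16 alternatives. It was also lost when T1 replicate 1 or 3, or T2 replicate 1, 2 or 3, was left out. The Mapt call held in 11 of 16 and was also lost without T1 replicate 1. Stmn4 was 1.20 higher (log2, SE 0.42), with an adjusted p of 0.288. It was, with Dcx and Mapt, one of 3 members whose groups did not overlap, against 12% of all genes.

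From T2 to T3 no member of the 7 tested passed, where 1.19% of all genes did (0.5% higher, 0.691% lower), and the groups did not overlap for 1 member, Dclk1, and for 25.6% of all genes. At an unadjusted p under 0.05 Dclk1 alone of the 7 would have passed, beside 2144 of all 12599 genes tested. Dclk1 was also the one member past the threshold in DESeq2, which called 5.81% of all genes. The T3 libraries disagreed on Dcx, Mapt and Stmn4: replicate 1 held 2.01-fold, 2.55-fold and 1.63-fold the level of replicate 4, while the ratio was 1.10 for Dclk1 and 1.06 for Dclk2. In the same libraries the summed neuron markers were 2222 and 1455 and the proliferation markers 605 and 1139, and the part of these differences in the member values was not tested. Between T3 and T1, Dclk1, lower, was the one member past the threshold, where 6.5% of all genes passed (4.2% higher, 2.3% lower), and 5 of the 7 members did not overlap, against 39.9% of all genes.

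Between members, levels were compared on the FPKM scale, which divides by transcript length. At T0 the highest mean levels were those of Dclk2 (46.0 ± 13.3 FPKM, SD, n = 3), Dclk1 (35.7 ± 16.1) and Stmn1 (33.1 ± 11.0), whose libraries overlapped. Mapt (3.53 ± 2.42), Stmn3 (1.59 ± 0.472), Dcx (0.442 ± 0.254) and Stmn4 (0.246 ± 0.255) followed, and Stmn2 was listed at 0. Of these neighbours in the order, Stmn1 and Mapt, and Stmn3 and Dcx, did not overlap.

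After the change of medium Dcx and Mapt moved up this order together. At T1 Mapt stood at 20.2 ± 0.156 FPKM and Dcx at 18.9 ± 1.89, with overlapping libraries, below Dclk2 (51.7) and Dclk1 (44.4). Both stood above Stmn1 as listed (13.7), whose own level is uncertain. At T2 they were at 30.2 ± 3.75 and 29.2 ± 5.29 FPKM, again overlapping and again between Dclk1 and Stmn1. At T3 Dclk2 (42.4), Mapt (41.3 ± 31.0), Dcx (32.6 ± 18.9) and Dclk1 (26.1) each overlapped the next in this order, while Dclk2 lay above Dclk1 in both libraries.

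**Figure D4:**
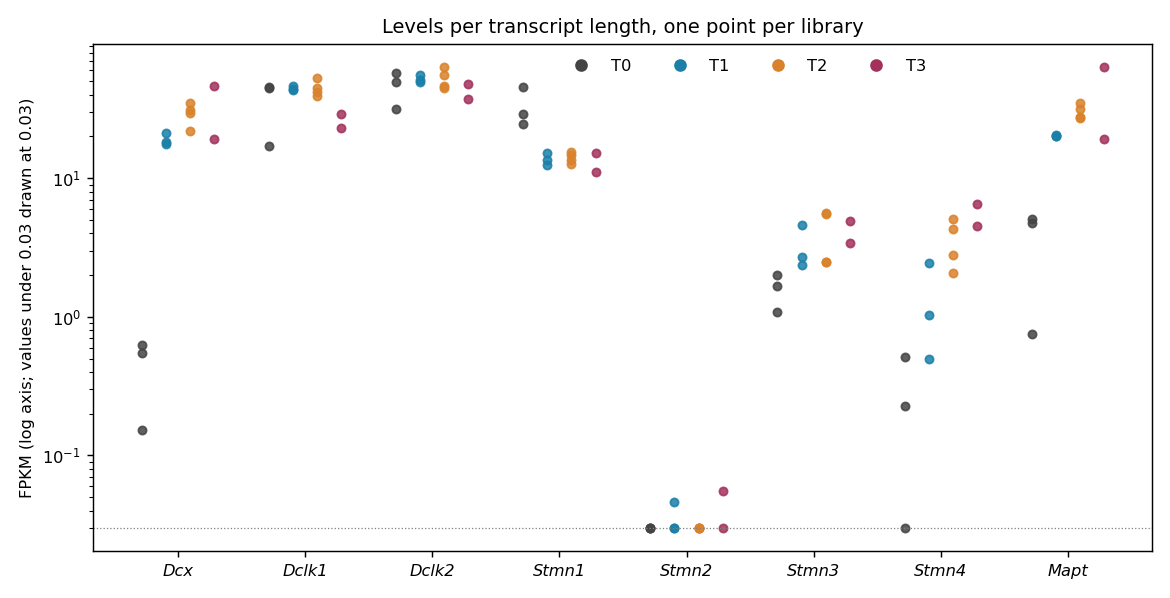
FPKM of the members in each library on a log axis, coloured by time point; values under 0.03 are drawn at 0.03. Dclk1 and Dclk2 are high at every time point, Dcx and Mapt climb from a mean of 0.442 and 3.53 at T0 to 29.2 and 30.2 at T2, and Stmn2 stays at the bottom of the scale.

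Over the 12 libraries the log2 CPM of Dcx and Mapt had a Pearson r of 0.966, Dcx and Stmn4 0.909, Dcx and Stmn1 -0.949, and Dclk1 and Dclk2 0.805, while Dcx and Dclk1 had 0.454. The libraries fall into T0 and later ones and share their T0 level and depth, so these are descriptions without a test. Among 11524 other genes the patterns most like that of Dcx were those of Ap3b2 (r = 0.9957), a neuronal adaptor subunit of vesicle transport, and Rab44 (0.9954). For Mapt they were Nmnat2 (0.9978), an axon maintenance enzyme, and Rasl10b (0.9972), and for Stmn4 Cpeb1 (0.9678), which binds polyadenylation elements in messenger RNA, and Ppapdc1a (0.955). Mtmr10 (0.9685) and Pygb (0.9676) were nearest to Dclk1, Ppp4r1l-ps (0.9621) and AW146154 (0.9316) to Dclk2, D030056L22Rik (0.9782) to Stmn1, and Tmem184c (0.9308) and Cd68 (0.9287) to Stmn3.

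The doublecortin domain also occurs in genes outside the family, and most of these were hardly expressed. Of 7 such relatives 6 were in the tables. Dcdc2b had the most reads of them, at a mean of 7.22 CPM in T0 cells and of 6.75, 6.30 and 7.33 CPM in the later groups. It passed the test in no comparison. Dcdc2a had reads in every library but 13 counts at most, and Dclk3, Dcdc2c, Rp1 and Rp1l1 had 2 at most.

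Other microtubule genes moved in both directions at T2, where 43.3% of all genes were called against T0, 21.4% higher and 21.8% lower; the counts of each list stand beside these shares. Of the tubulins, the building blocks of the polymer, 2 of 12 tested were higher and 8 lower at T2 against T0, and the median log2 fold change over the 12 was -1.31. The neuronal tubulin Tubb3 (2.42, adjusted p = 0.00136) and Tuba1a (0.86, adjusted p = 0.00992), the main alpha-tubulin of young neurons, rose, and Tubb6 (-2.58) and Tube1 (-1.68), the epsilon-tubulin linked to centrioles, fell (adjusted p = 0.000236 and 0.000165). Tubulin genes are similar to one another and to pseudogenes, and whether their counts carry the same limit as those of Stmn1 was not tested.

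Among proteins that bind microtubules along their length, 6 of 16 were higher and 4 lower at T2, beside 21.4% and 21.8% of all genes. Tppp, which bundles microtubules in oligodendrocytes, rose by 1.31 (log2, adjusted p = 0.000683) and Mtap7, which recruits kinesin, by 1.19 (adjusted p = 0.0224), while Mid1 was at -0.76 (adjusted p = 0.00393) and Mtap7d2 at -0.39 (adjusted p = 0.0336). Of 20 proteins of the growing end 9 were higher and 1 lower, the former led by Nav2 (2.11, adjusted p = 0.000297) and Clip1 (1.16, adjusted p = 0.00171) and the latter being the microtubule polymerase Ckap5 (-0.69, adjusted p = 0.000841). In the dynein and LIS1 complex, which acts with doublecortin in moving nuclei, 1 of 13 was higher and 2 lower: Ndel1 at 0.52 (adjusted p = 0.00567), Nde1 at -0.92 (adjusted p = 0.000885) and Pafah1b3 at -0.39 (adjusted p = 0.0334).

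Of 8 severing enzymes and relatives 1 was higher and 3 lower, with Spast at 0.32 (adjusted p = 0.027), Fignl1 at -3.12 (adjusted p = 0.000151) and Katnal2 at -1.48 (adjusted p = 0.000104). Fignl1 has a known role in DNA repair. Of 26 kinases and phosphatase subunits that act on doublecortin, stathmins or tau, 10 were higher and 3 lower, a share near the 43.3% of all genes. The risers included Camk2a (6.06, adjusted p = 4.7e-05) and Ppp2r2b (2.08, adjusted p = 0.000296), a regulatory subunit of protein phosphatase PP2A, and the fallers Aurkb (-3.41) and Cdk1 (-3.08), both mitotic kinases that are also in the proliferation list (adjusted p = 0.000129 and 0.000165). Of 19 tubulin-modifying enzymes 7 were higher and 4 lower, with the tubulin acetyltransferase Atat1 at 1.11 (adjusted p = 0.00144), the deacetylase Sirt2 at 0.98 (adjusted p = 0.00334), Ttll4 at -1.13 (adjusted p = 0.00574) and Ttll5 at -0.72 (adjusted p = 0.00486).

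**Figure D5:**
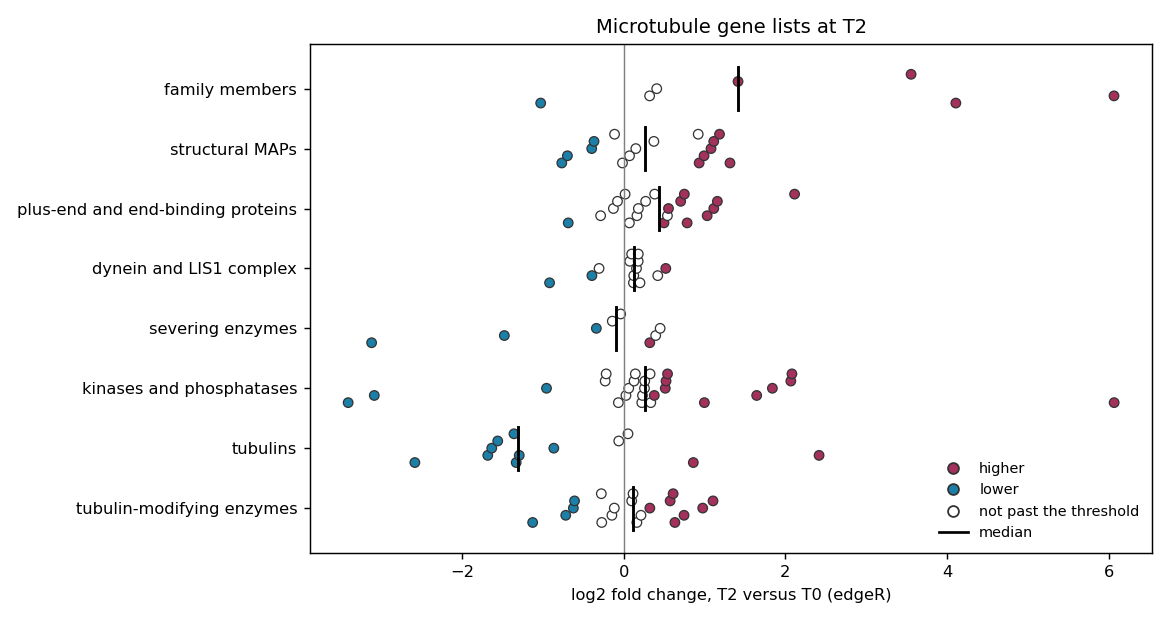
log2 fold change at T2 against T0 of the family members and of 7 lists of microtubule genes, one point per gene tested; filled points passed the test and black bars are list medians. The tubulin median lies at -1.31 and the family median at 1.41, while the medians of the other lists lie between -0.09 and 0.44.

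At T3 the number of list genes called against T0 depended on the fit. The edgeR fit of the T0 and T3 libraries called 4 of the 116 genes tested, doublecortin-domain relatives included, where 4.72% of all genes were called. At an unadjusted p under 0.05 it had 40 of the 116, beside 3350 of all 12721 genes tested. One edgeR fit of all 12 libraries called 46 of 116 (27 higher, 19 lower), where 29.8% of all genes were called. DESeq2 called 28 of 117, beside 14.8% of all genes, and edgeR without T0 replicate 3 called 23 of 115, beside 18.4%. Limma called 2 or 0, beside at most 0.846% of all genes. The 4 of the first fit were 1 length-binding protein and 2 kinases or phosphatases, all higher, and the severing enzyme relative Katnal2, lower (-1.71, adjusted p = 0.0203). Between T1 and T2 edgeR called 0 of 115, beside 0.63% of all genes. At an unadjusted p under 0.05 it had 9 of the 115, beside 1444 of all 12382 genes tested. DESeq2 called 0 of 116, beside 2.27% of all genes, and limma 0. With the replicate block edgeR called 3 (1 higher, 2 lower), beside 1.99% of all genes. Between T2 and T3 edgeR called 0 of 115, beside 1.19% of all genes. At an unadjusted p under 0.05 it had 23 of the 115, beside 2144 of all 12599 genes tested. DESeq2 called 10 of 116, beside 5.81% of all genes, and limma 0. Between T1 and T3 edgeR called 7 of 115 (4 higher, 3 lower), beside 6.5% of all genes. DESeq2 called 12 of 117, beside 9.72% of all genes, and limma 0.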

How the data were processed

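The 12 mouse ANS cell libraries were analysed, with groups and replicate numbers from the labels. Per the labels and the authors' methods, reads were aligned with TopHat2 2.0.6 to mm9 and the deposited counts per gene were made with HTSeq 0.6.0, without pooling of replicates; read length and strand setting are not given in the sources used here. The deposited FPKM values are the authors' own, with the tool not given in the sources used here. The 5 entries that name no gene were left out of library sizes; reads outside genes were 13.3% to 24.1% of uniquely placed reads.

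Each pair of time points was tested on counts with edgeR 4.0.16 (R 4.3.3; TMM, filterByExpr, quasi-likelihood test) over all genes, Benjamini-Hochberg adjusted, with a threshold of 0.05. Alternatives were DESeq2 1.42.0, other size factors, filters and fits, a replicate block, limma 3.58.1 on log2(FPKM + 1) or log2(FPKM + 0.1), and each library left out. The script was tested on simulated data. Between T1 and T2, the deviations of libraries with the same number from their group means had correlations of 0.199, 0.341 and 0.166. T1 replicate 3 and T2 replicate 4, with unlike numbers, had 0.37. Neither the labels nor these values establish a pairing, and the replicate block is given only as an alternative. Copies of 50-base stretches were searched in the NCBIM37 genome (mm9) with GENCODE transcripts.

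The members, the gene lists and the rule for named genes (all members and doublecortin-domain relatives, for each other list the 2 largest rises and 2 largest falls called at T2 against T0 without overlap, and the 2 genes most like each member) were chosen with earlier results of these data known. One gene that the rule names is not reported here. Intervals and floors cover counting or replicate error only.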

Additional observations from a re-analysis of the deposited data

How the results depend on the processing

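Of 601 single-gene values under alternatives, for 41 member results, 520 kept their direction and side of the threshold, 41 lost and 22 gained the call, and 18 reversed. The counts of members called at T1 (3) and T2 (5) against T0 stayed within 1.5 times under every alternative. The share of all genes called ranged from 10.9% to 50.1% at T1 and from 18.9% to 52.1% at T2. Against T0 at T3 the count of 2, beside 4.72% of all genes, became 5 with DESeq2 (14.8% of all genes) and in one fit of all 12 libraries (29.8%). It became 1 with limma on log2(FPKM + 0.1) (0.846%) and 0 with limma without a filter (0.111%). With 1 T0 library left out it was 0 to 5, and 5 without T0 replicate 3 (18.4%). From T1 to T2 the count of 2, beside 0.63% of all genes, became 0 in one fit (0.0232%) and in the 3 limma fits (at most 0.0371%). With 1 library left out it was 0 to 2, and 0 without T1 replicate 1 (0.0716%). From T2 to T3 the count of 0, beside 1.19% of all genes, became 1 with DESeq2 (5.81%) and without a filter on low counts (4%). It stayed at 0 with any 1 T2 library left out. Fits without a T3 library keep only 1 library at T3 and are not counted here. From T1 to T3 the count of 1, beside 6.5% of all genes, became 4 with DESeq2 (9.72%) and without a filter (9.43%). It became 0 in one fit (5.58%), in the 3 limma fits (at most 0.559%) and with any 1 T1 library left out (at most 0.917%). Some of the values that reversed were small. With 1 library left out these were Dclk1 (-0.063 to 0.509) and Dclk2 (-0.065 to 0.378) at T1 and Dclk2 at T3 (-0.15 to 0.297), each negative without T0 replicate 3. In limma they were Dclk2 at T3 (-0.081, -0.082 and -0.081), Dclk1 from T1 to T2 (-0.001 in each) and Stmn1 from T1 to T3 (-0.067, -0.072 and -0.067). From T2 to T3, with 1 library left out, Dcx (-0.436 to 0.567), Mapt (-0.422 to 0.921), Stmn1 (-0.359 to 0.185) and Stmn3 (-0.03 to 0.475) each reversed without T3 replicate 1. For Dcx and Mapt these reversals were not small beside the main values of 0.154 and 0.405. Their direction after T2 therefore depends on T3 replicate 1. Stmn1 from T1 to T3 (-0.239 to 0.296) reversed without T1 replicate 2 or T3 replicate 4. The cause was not tested. In limma on FPKM the median of all genes moved, by -0.263 at T3 against T0.

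With the replicate block, the calls for Dcx and Mapt against T0 held at T1 and T2 (Dcx 5.44 and 6.32), Stmn3 at T2 was lost (adjusted p = 0.0766), and no other member call changed; the share of all genes called moved from 43.3% to 25% at T2 against T0 and from 1.19% to 0.111% at T3 against T2. Those libraries share only a number. No paired analysis was possible for T3 against T0 or T1 because those time points share 1 number. Low reads limit Stmn2, Stmn3 and Stmn4, sequence copies limit Stmn1, and 2 libraries limit T3.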
